A study of Mus musculus with 8 samples.

Results

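The regions described here are the CUT&RUN peaks of mouse embryonic stem cells that lie on assembly scaffolds, the sequences of the GRCm39 genome build that are not part of chromosomes 1 to 19, X, Y or the mitochondrial genome. They were chosen by sequence name alone, also leaving out a sequence named dm, and peaks of the 8 libraries that overlapped by 1 bp or more were joined into a region. This gave 130 regions on 19 scaffolds from 520 peaks, of 23706 regions and 41409 peaks in all. The cells were E14TG2a, an established embryonic stem cell line grown with LIF and the kinase inhibitors PD0325901 and CHIR99021. The genotypes were WT and Alkbh5 del-cIDR, a deletion in Alkbh5, which encodes an RNA demethylase. Antibodies against YY1 and P300 were used, with 2 libraries for each antibody and genotype. The labels do not say whether the replicates came from separate cultures or how many clones carried the deletion, so the p-values reflect the spread among these libraries, which may be technical.

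The zinc-finger factor YY1 binds at many promoters. The coactivator P300 acetylates histones and is found at active enhancers and promoters. In CUT&RUN an antibody guides a nuclease to the target protein, and the released fragments are sequenced. Scaffolds hold sequence that an assembly could not join to a chromosome, often because it is repeated, and reads from several genomic copies can gather on a single assembled copy. The sources used here do not say how reads with several alignments were treated. No genome sequence or gene annotation on this build was used, so regions are given by scaffold and position, counted from 1, without genes.

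P300 lists held more scaffold peaks than YY1 lists. The YY1 libraries held 47 and 39 scaffold peaks in del-cIDR replicates 1 and 2 and 32 and 54 in WT replicates 1 and 2. The P300 libraries held 85 and 83 in del-cIDR and 80 and 100 in WT cells. Every P300 library was above every YY1 library, although P300 lists were shorter, with 1429 to 2611 peaks against 3565 to 15654. Scaffold peaks made up 0.509% (Wilson 95% interval 0.383 to 0.676) and 0.249% (0.182 to 0.340) of the YY1 lists in del-cIDR and 0.898% (0.637 to 1.26) and 0.914% (0.701 to 1.19) in WT cells. For P300 the shares were 5.92% (4.81 to 7.26) and 5.81% (4.71 to 7.14) in del-cIDR and 5.07% (4.09 to 6.27) and 3.83% (3.16 to 4.64) in WT cells. The intervals cover counting error only. The mean share was 0.643% ± 0.322 (SD, n = 4) for YY1 and 5.16% ± 0.961 (SD, n = 4) for P300. By geometric means P300 was 8.95-fold higher (log2 difference −3.16, YY1 minus P300), and the two-sided exact permutation test over 70 assignments gave p = 0.029, its smallest possible value, with an adjusted p of 0.14 over the 5 comparisons made. The direction held in all 4 P300 libraries, but the result does not pass after adjustment. With every list shortened to its best 1429 peaks the log2 difference was −1.90.

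**Figure D1:**
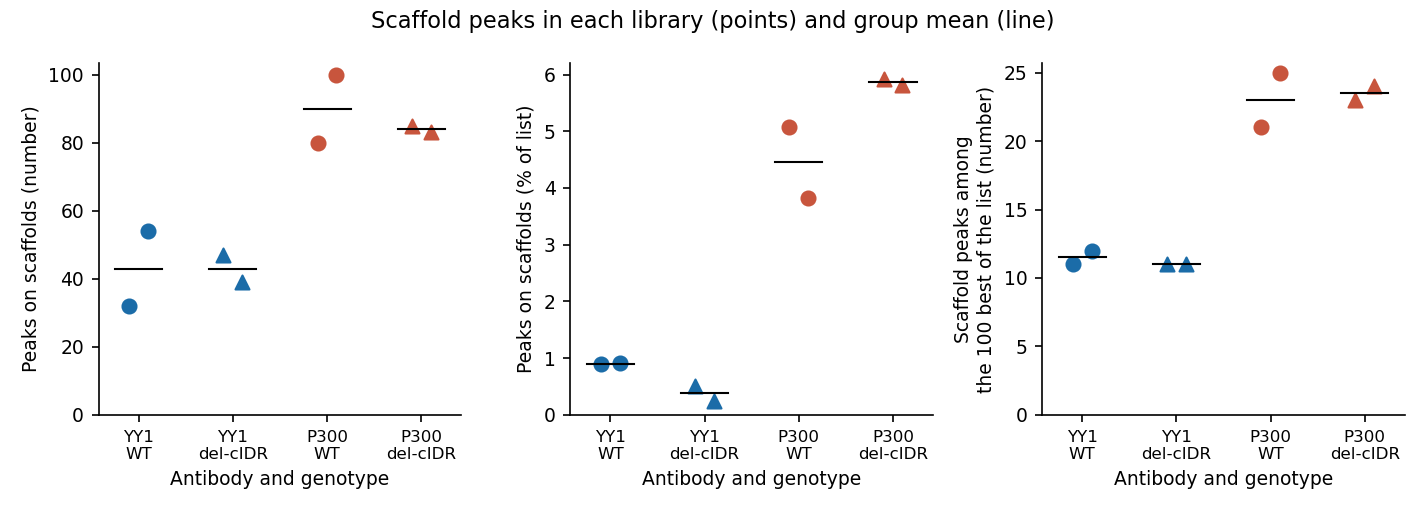
Scaffold peaks per library as a number, as a percentage of the peak list and as the number among the 100 peaks with the highest −log10 q of the list; points are libraries and lines are group means (n = 2). The 4 P300 libraries lie above the 4 YY1 libraries in all 3 panels, with 80 to 100 against 32 to 54 peaks in the first.

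Many scaffold peaks ranked near the top of their own list. Among the 100 peaks with the highest −log10 q, 11 or 12 lay on scaffolds in each YY1 library and 21 to 25 in each P300 library. The best scaffold peak held rank 5 to 10 in the YY1 lists and 12 to 14 in the P300 lists. The median percentile of −log10 q, where 100 is the strongest peak of a list, was 71.8 and 91.5 in YY1 del-cIDR, 79.9 and 77.0 in YY1 WT, 88.9 and 88.7 in P300 del-cIDR and 89.6 and 90.4 in P300 WT libraries. The antibodies overlapped in this measure, with a mean difference of −9.34 points for YY1 minus P300 (exact permutation p = 0.14, adjusted 0.36, n = 4 per antibody). The sign of that difference turned to 4.22 points when all lists were shortened to 1429 peaks.

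At the median, scaffold peaks rested on more reads than chromosomal peaks and on a higher local background, but not on every scaffold. The number of reads at each summit and the local background, both in reads, were worked out from the authors' fold and p-value, and came out as whole summit reads in 100% of peaks within a relative tolerance of 1e-04. The median summit carried 33 to 52.5 reads on scaffolds against 8 to 12 on chromosomes in the YY1 libraries, and 56 to 65 against 12 to 13 in the P300 libraries. The median background was 6.13 to 15.7 reads on scaffolds against 0.655 to 1.57 on chromosomes for YY1, and 8.81 to 11.97 against 1.48 to 1.73 for P300. These medians pool all scaffolds. On GL456211.1, GL456212.1, GL456221.1, GL456233.2, GL456239.1, GL456354.1, GL456370.1 and MU069434.1 the background was lower than on chromosomes. There its median was 0.493 to 0.941 times the chromosomal median of the same library. On these scaffolds except GL456233.2 and GL456370.1, summits carried 5 to 12 reads. The part of reads with several alignments in these values was not tested. The median deposited fold was close in both places, at 4.37 to 5.81 on scaffolds and 4.95 to 5.20 on chromosomes. P300 peaks were wider on scaffolds, with medians of 208 to 223 bp against 161 to 164 bp, while YY1 medians overlapped, at 223 to 310.5 bp against 227 to 287 bp. Read depth per library is not given in the files.

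A pair of scaffolds held 59.2% of the peaks. JH584304.1 carried 190 peaks in 48 regions and MU069435.1 carried 118 peaks in 17 regions. JH584304.1 held 18 and 15 YY1 peaks in del-cIDR, 14 and 20 in WT, and 28 and 28 P300 peaks in del-cIDR and 31 and 36 in WT libraries. On MU069435.1 the YY1 libraries held 13 and 14 peaks in del-cIDR and 9 and 13 in WT cells, and the P300 libraries 17 and 16 in del-cIDR and 16 and 20 in WT cells. On both scaffolds each P300 library had more peaks than any YY1 library, with a smaller gap on MU069435.1.

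In all, 6 scaffolds had a peak in each of the 8 libraries. Beside JH584304.1 and MU069435.1 these were GL456392.1, GL456390.1, GL456396.1 and GL456368.1. GL456392.1 carried 3, 3, 1 and 4 peaks in the YY1 libraries (del-cIDR replicates 1 and 2, then WT replicates 1 and 2) and 8, 8, 7 and 7 in the P300 libraries in the same order. In that order GL456390.1 carried 3, 1, 2 and 4 YY1 peaks and 5, 6, 6 and 6 P300 peaks. GL456396.1 carried 2, 1, 2 and 3 YY1 peaks and 5, 2, 2 and 4 P300 peaks, and GL456368.1 carried 1, 3, 2 and 1 YY1 peaks and 3, 2, 2 and 3 P300 peaks. The antibodies did not overlap on GL456392.1 and GL456390.1 and did on GL456396.1 and GL456368.1. A further 3 scaffolds, GL456367.1, GL456389.1 and GL456370.1, had peaks in all 4 P300 libraries and in no YY1 library. GL456367.1 was the fullest of them, with 6, 7, 6 and 7 P300 peaks. At the other end, GL456239.1 and GL456354.1 had a single peak in a single library, of P300 and YY1 respectively.

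**Figure D2:**
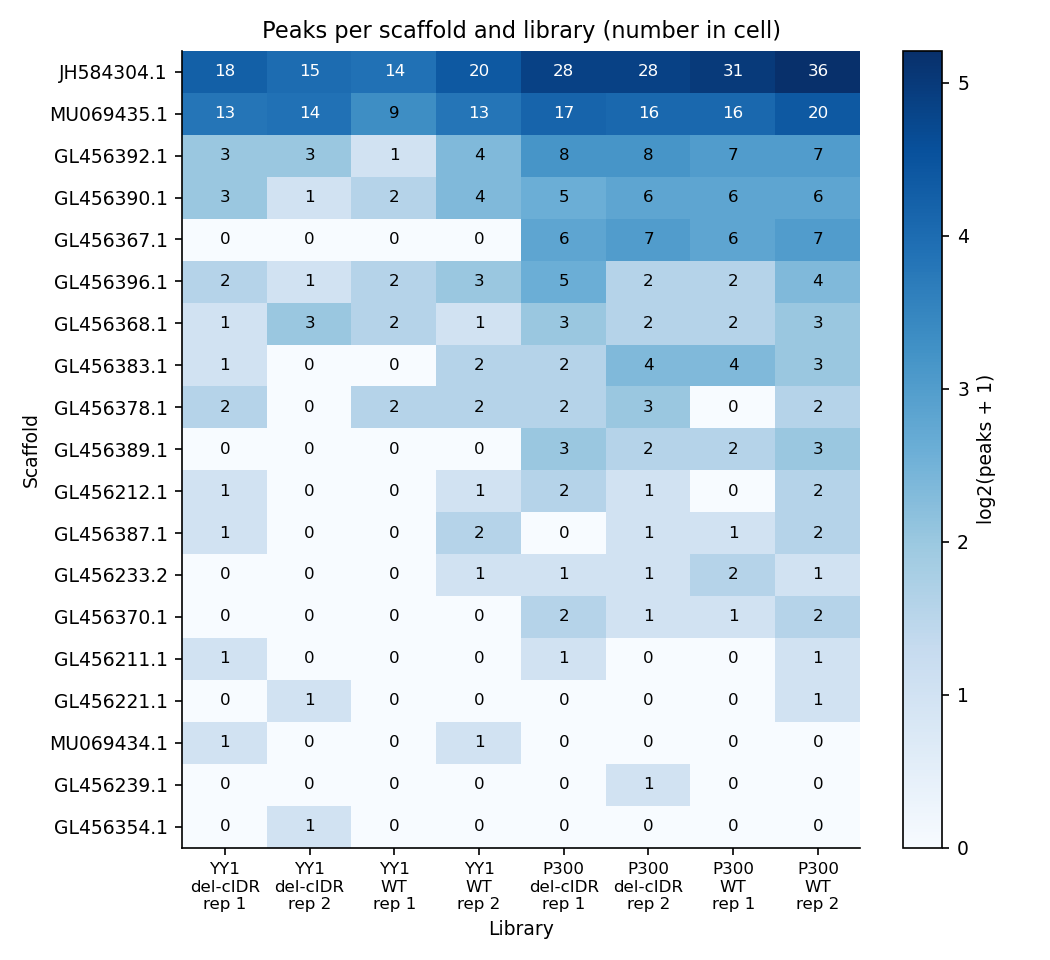
Number of peaks on each of the 19 scaffolds (rows) in each library (columns), with colour on a log2(peaks + 1) scale. JH584304.1 and MU069435.1 are filled in every library, and GL456367.1 is filled only in the P300 columns, with 6 or 7 peaks.

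Regions were dense on the scaffolds. Measured from the first base to the last peak of each sequence, scaffolds held 0.853 regions per 10 kb and chromosomes 0.0863. Regions covered 3.12% of this span on scaffolds and 0.267% on chromosomes. The last peak is a lower limit of a scaffold's length, so these densities are upper limits. Only the 19 scaffolds with a peak were counted, so scaffolds without one add no length. GL456367.1 was the densest with 6.01 regions per 10 kb, followed by MU069435.1 with 5.46, JH584304.1 with 4.23 and GL456392.1 with 3.85. On MU069435.1 regions covered 39.5% of the span. The longest scaffold by this measure, GL456233.2, held 2 regions in 529753 bases, or 0.0378 per 10 kb. Its region from 523086 to 523256 was called in all P300 libraries and in YY1 WT replicate 2, with folds of 11.6 to 28.6.

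Scaffold regions recurred across libraries. Of the 130 regions 17 (13.1%, Wilson 95% interval 8.33 to 19.9) were held by all 8 libraries, against 0.422% of the merged regions of the whole series. A single library held 36 scaffold regions (27.7%), against 63.9% in the whole series. Of the 17 regions, 8 lay on MU069435.1 and 6 on JH584304.1, with 1 each on GL456392.1, GL456390.1 and GL456368.1. The regions of 1 scaffold may share sequence and are not independent. Regions in all libraries ranked higher, with a median over regions of the mean percentile of 96.8 for regions in all 8 libraries and 49.2 for those in 1. When peaks were joined by summits within 100 bp of each other, 9 scaffold sites were held by all 8 libraries, of 61 such sites in the whole series. Joined by overlap, it was 17 of 100. The share of all sites joined by summits is not given here, so the excess is shown for joining by overlap only.

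**Figure D3:**
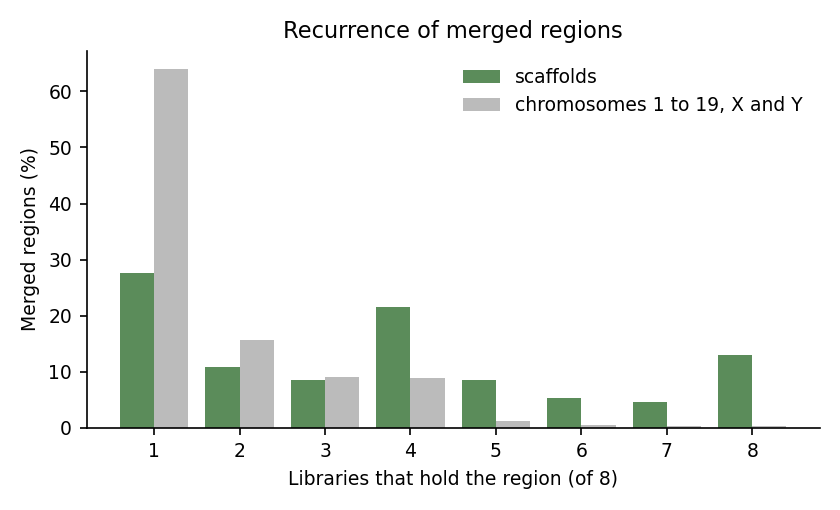
Share of merged regions (%) held by 1 to 8 libraries, on scaffolds (green, 130 regions) and on chromosomes (grey, 23459 regions). Scaffold regions have a larger share at 8 libraries, 13.1% against 0.341%, and a smaller one at 1 library, 27.7% against 64.0%.

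By the mean percentile over libraries, the best-ranked region in all 8 libraries was on GL456392.1 from 21965 to 22384. Its summit carried 398 and 310 YY1 reads in del-cIDR, 661 and 721 in WT, and 1176 and 1479 P300 reads in del-cIDR and 1232 and 1204 in WT libraries. The deposited fold was 23.4 to 29.5, and the 8 summits lay within 12 bp. JH584304.1 followed with a region from 73035 to 73267, with folds of 21.6 to 31.7 and summits within 3 bp. Another of its regions, from 113166 to 113414, had folds of 27.1 and 28.2 for YY1 in del-cIDR, 33.7 and 39.5 in WT, and 67.6 and 69.6 for P300 in del-cIDR and 70.3 and 71.6 in WT libraries. On MU069435.1 the region from 20656 to 21057 had folds of 24.2 to 33.2 over the 8 libraries. The other 6 of the 10 best-ranked regions lay on JH584304.1 and MU069435.1 and had mean percentiles of 96.4 to 98.9. Summits in 5 of the 10 regions lay within 50 bp of each other, while the other 5 were 560 to 2697 bp wide and their summits spread over 223 to 2363 bp.

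Scaffold regions of YY1 were mostly also P300 regions. Of the 71 regions with a YY1 peak, 58 (81.7%, 71.2 to 89.0) had a P300 peak in at least 1 library, against 7.99% in the whole series. All 4 YY1 libraries shared 17 of the 71 regions (23.9%), against 9.82% in the whole series. All of these 17 were also in all 4 P300 libraries, against 4.92% in the whole series. The remaining 13 regions with a YY1 peak and none of P300 ranked low at the median and were mostly unrepeated. Their median of the mean percentile was 33.2 (17.1 to 70.3) and 2 of them were in more than 1 library. The same share over the whole series is not given here. The region on GL456368.1 from 19499 to 19731 reached a percentile of 89.1 in YY1 del-cIDR replicate 2 and 29.1 in WT replicate 1. None of the 130 regions was in all 4 YY1 libraries and no P300 library, against 7.24% in the whole series. From the side of P300, 58 of 117 regions (49.6%, 40.7 to 58.5) had a YY1 peak, against 35.6% in the whole series. Of the 55 regions in all 4 P300 libraries, 34 (61.8%) had a YY1 peak, against 63.2%, and 17 (30.9%) were in all 4 YY1 libraries, against 28.3%, both near the background.

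Scaffold regions of P300 recurred across the P300 libraries. All 4 P300 libraries shared 55 of the 117 regions with a P300 peak (47.0%, 38.2 to 56.0), against 7.60% in the whole series. As given above, 34 of these 55 (61.8%) had a YY1 peak, against 63.2% in the whole series. The other 21 had no YY1 peak in any library, so the lack of YY1 was near the background. Counted over all regions, with or without P300, these 21 are 16.2% of the scaffold regions against 0.548% in the whole series. That share counts the recurrence of P300 and the lack of YY1 together. The 21 regions lay on JH584304.1 (9), GL456367.1 (6), GL456392.1 (2), and GL456370.1, GL456389.1, GL456390.1 and MU069435.1 (1 each). In 17 of the 21 the P300 summits lay within 50 bp of each other. The following regions were picked after their values were seen. On GL456389.1 from 10565 to 10793 the P300 summit reads were 537 and 704 in del-cIDR and 608 and 596 in WT libraries, with folds of 43.9 to 46.9. On JH584304.1 from 106771 to 106921 they were 369, 514, 424 and 426 in the same order, with folds of 36.2 to 41.1. On GL456370.1 a peak from 8 to 164, at the very start of the scaffold, had 79, 66, 70 and 59 reads and folds of 33.3 to 38.7. The genotypes overlapped in summit reads at all 3 of these regions.

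On JH584304.1 regions were weaker and wider at the median over the first part than over the last part. The widest gap between regions, 7734 bp after base 60774, was used to divide it, a division chosen after the data were seen. Before the gap 30 regions had a median width of 347.5 bp and a median fold over peaks of 2.64, and median percentiles per library of 33.2 to 59.5 for YY1 and 37.9 to 63.7 for P300. After the gap 18 regions had a median width of 163.5 bp and a median fold of 12.3, with median percentiles of 98.8 to 99.5 for YY1 and 96.3 to 98.3 for P300. The median background per library was higher before the gap. It was 6.13 to 16.6 reads before and 1.51 to 4.93 after it for YY1, and 19.1 to 20.9 and 8.80 to 11.5 for P300. The part of the background in the fold difference was not tested. All 4 P300 libraries held 5 of the 30 regions before the gap and 14 of the 18 after it. P300 peaks per library were similar on both sides, 13 to 20 before and 15 to 17 after, whereas YY1 peaks numbered 9 to 15 before and 5 or 6 after. The 9 regions of all P300 libraries without YY1 all lay after the gap. Of the regions in all 8 libraries, 2 lay before the gap and 4 after it. The region from 26806 to 27250, before the gap, was weak, with folds of 2.51 to 3.15 and a mean percentile of 62.1. Strong regions were still not limited to the last part. The region from 58819 to 60774, also before the gap, is among the 10 best-ranked, with folds of up to 12.9 and a mean percentile of 96.8.

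**Figure D4:**
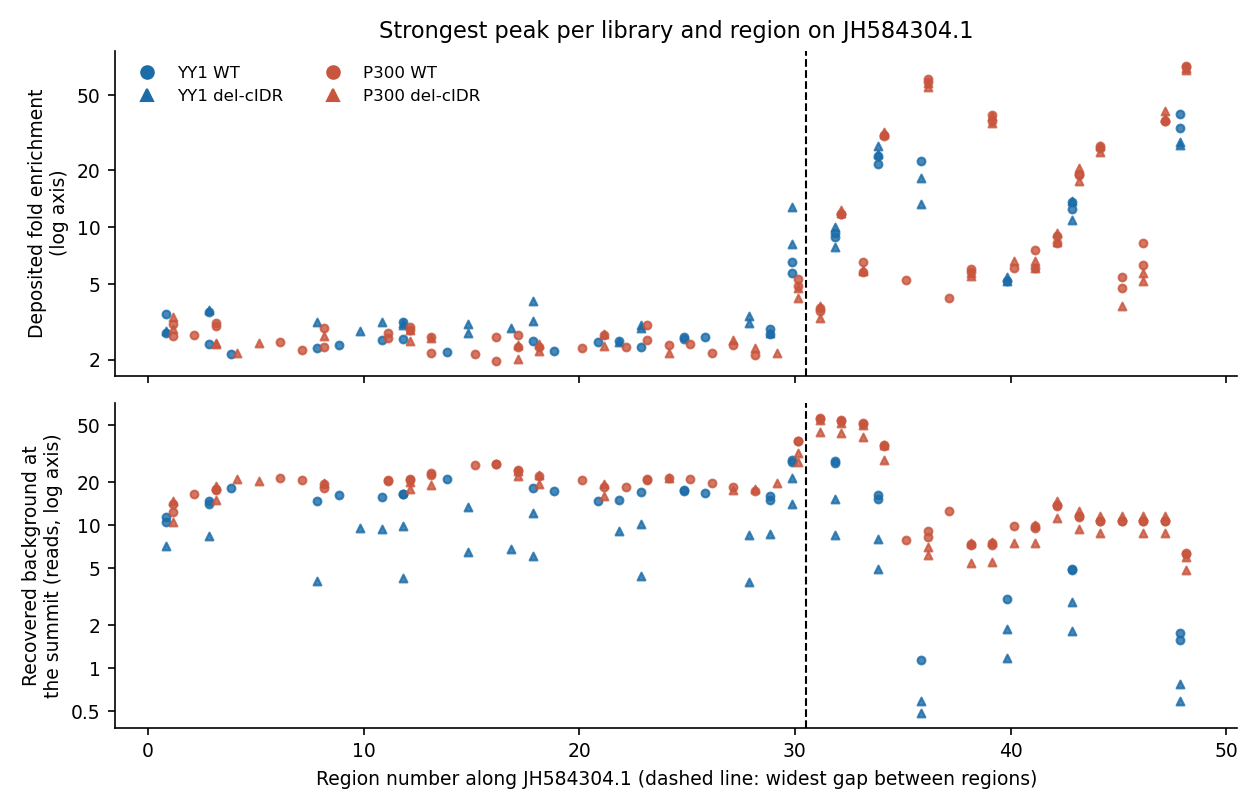
Deposited fold (upper panel) and recovered background in reads (lower panel), both on log axes, of the strongest peak per library in each of the 48 regions along JH584304.1, in order; colour marks the antibody, shape the genotype and the dashed line the widest gap. The median fold over all peaks is 2.64 before the line and 12.3 after it, where folds reach 71.6.

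MU069435.1 had a high local background at its peaks. Its median background per library was 54.5 to 96.1 reads for YY1, or 56.5 to 83.2 times the chromosomal median of the same library, and 55.3 to 65.7 reads for P300, or 35.5 to 41.8 times. Folds on this scaffold were as low as 1.42, with a median of 2.60, although the median percentile of its peaks was 91.9. A peak on this background can thus have a low fold and a high −log10 q. The background is a value at each summit and can vary along a scaffold. On GL456392.1 it was 4.90 to 5.78 reads for P300 from 11109 to 11329 and 39.3 to 49.2 from 21965 to 22384. How far it includes reads of the peaks themselves was not tested. YY1 summits on MU069435.1 were high at 3 places. The YY1 summit reads were 1012 and 879 in del-cIDR and 741 and 848 in WT libraries in the region from 12654 to 14398. In the region from 26125 to 28821 each YY1 library had a pair of peaks, with summits at 26194 to 26233 (1049 and 991 reads in del-cIDR, 843 and 947 in WT) and at 28543 to 28557 (1116 and 1000 in del-cIDR, 822 and 950 in WT). P300 summits near 28557 carried 213 and 211 reads in del-cIDR and 187 and 181 in WT libraries.

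Summit reads of the antibodies were compared at shared sites. At the 9 summit sites in all 8 libraries, log2 summit reads were centred on each library's median. That median was taken over the 61 such sites of the whole series. Centring takes out differences in depth, and also any general difference in enrichment between libraries or antibodies. All 4 YY1 libraries lay above all 4 P300 libraries at 3 sites of MU069435.1, with differences of means of 0.79, 1.11 and 2.97 (log2, YY1 minus P300). All 4 P300 libraries lay above all YY1 libraries at the site of GL456392.1, with a difference of −0.68, and at the 3 sites of JH584304.1, with −1.17, −1.34 and −2.17. At the remaining site of MU069435.1 and that of GL456390.1 the antibodies overlapped. In the whole series 24.6% of sites had YY1 wholly above P300 and 36.1% the reverse, so the counts of 3 and 4 of 9 are near that background. Without centring, the antibodies overlapped at the MU069435.1 site with the difference of 0.79 (118 to 183 YY1 reads, 138 to 147 P300 reads). Local background was not subtracted from summit reads. A ratio within a library needs no centring. Reads at site 4 of MU069435.1 (summits 28543 to 28559) over reads at site 2 of JH584304.1 (summits 73138 to 73141) were 5.07 and 6.25 in YY1 del-cIDR, 2.20 and 2.45 in YY1 WT, 0.232 and 0.179 in P300 del-cIDR and 0.165 and 0.159 in P300 WT libraries. These sites were picked after their values were seen, so the ratio is given without a test. All YY1 ratios were above all P300 ratios. The choice of sites fixed this, since YY1 lay wholly above P300 at the first and wholly below it at the second. Both del-cIDR ratios were above both WT ratios for each antibody. For YY1 the sites fixed this too, since centred del-cIDR reads lay wholly above WT at the first and wholly below at the second. For P300 the genotypes overlapped at the first site, and del-cIDR lay wholly below WT at the second. The ratios draw on the same reads as the centred values and add no separate result.

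**Figure D5:**
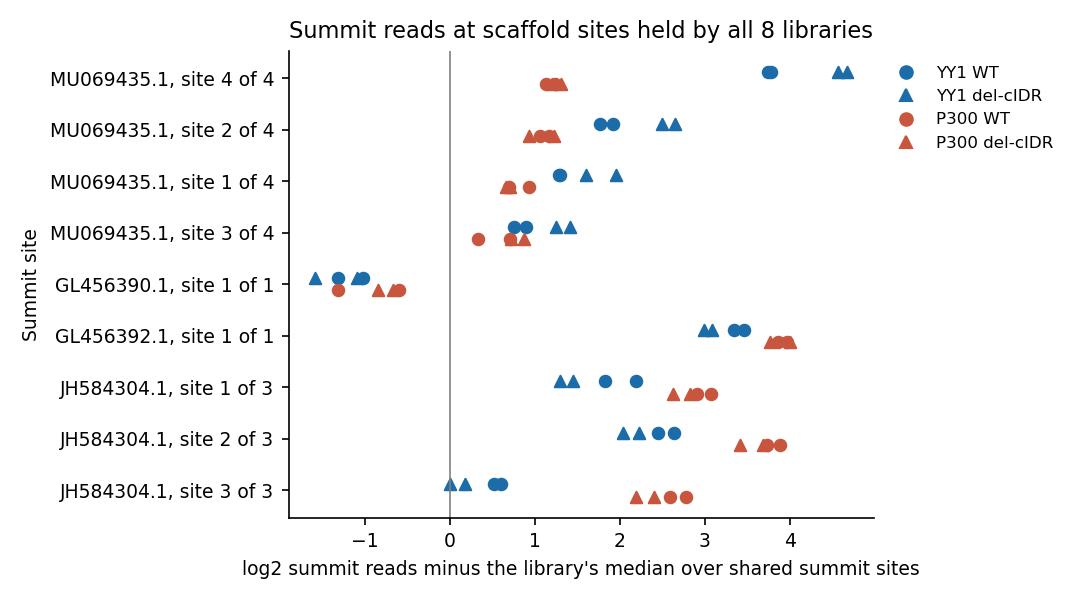
Summit reads at the 9 scaffold sites of all 8 libraries, as log2 reads minus the library's median over the 61 shared sites of the whole series; points are libraries, colour marks the antibody and shape the genotype. YY1 points lie to the right of P300 points at 3 sites of MU069435.1 and to the left at GL456392.1 and JH584304.1.

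The genotypes held similar numbers of scaffold peaks. The mean was 43 ± 5.66 (SD, n = 2) in del-cIDR and 43 ± 15.6 (SD, n = 2) in WT cells for YY1, and 84 ± 1.41 and 90 ± 14.1 for P300. The log2 ratio of del-cIDR to WT was 0.04 for YY1 and −0.09 for P300, with exact permutation p = 1 for each (n = 2 per genotype, smallest possible p 0.33). The ratios differed by 0.13 between the antibodies (exact permutation p = 0.78, smallest possible 0.056). The means differed by less than the spread between WT replicates, and at this number of libraries a difference could not have passed 0.05. The share of the YY1 list on scaffolds was lower in both del-cIDR than in both WT libraries, as given above. That difference came with list lengths of 9230 and 15654 peaks in del-cIDR against 3565 and 5907 in WT libraries, while the scaffold counts overlapped. With each YY1 list shortened to its best 3565 peaks the log2 ratio of scaffold peak number was −0.46, and both del-cIDR counts lay below both WT counts (exact permutation p = 0.33, the smallest possible with n = 2 per genotype).

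Regions of a single genotype numbered 11 in all. For YY1, 3 of 71 scaffold regions (4.23%) were in both del-cIDR libraries and no WT library, against 9.27% in the whole series, and 3 were in both WT libraries and no del-cIDR library, against 0.304%. The YY1 del-cIDR regions lay on JH584304.1 from 33962 to 34617 and from 53093 to 53563 and on MU069435.1 from 12161 to 12470, with folds of 1.57 to 3.38. The YY1 WT regions lay on GL456390.1 from 5631 to 5859, JH584304.1 from 50274 to 50627 and GL456396.1 from 11952 to 12223. The last was the strongest, with 51 and 52 summit reads, folds of 5.37 and 5.59 and percentiles of 94.5 and 94.3. For P300, 1 of 117 regions was in both del-cIDR libraries only, against 1.36%, and 4 in both WT libraries only (3.42%), against 4.20%. The P300 shares are near the background, the YY1 del-cIDR share is below it and the YY1 WT share above it, the last on 3 regions. The P300 del-cIDR region lay on GL456212.1 from 87602 to 87812 and had 8 and 11 reads. The P300 WT regions lay on JH584304.1 from 26393 to 26652, 36167 to 36539 and 48301 to 49037 and on MU069435.1 from 4671 to 4987, with folds of 1.49 to 3.03. These counts rest on single libraries. Leaving one out made 7 and 9 YY1 del-cIDR regions (without del-cIDR replicates 1 and 2) or 5 and 9 (without WT replicates 1 and 2), and 7 (without del-cIDR replicate 1), 16 and 5 (without WT replicates 1 and 2) YY1 WT regions. For P300 it made 6 and 10 del-cIDR regions without del-cIDR replicates 1 and 2 and 3 and 4 without WT replicates 1 and 2. It made 10 P300 WT regions without del-cIDR replicate 2 and 18 and 10 without WT replicates 1 and 2.

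Library pairs of the same and of different genotype overlapped in how many scaffold regions they shared. The share of regions in common, counted over the regions of either library, was 0.645 and 0.647 within genotypes for P300 and 0.617 to 0.716 between them. For YY1 it was 0.528 within del-cIDR and 0.414 within WT, and 0.410 to 0.516 between genotypes. Between antibodies it was 0.240 to 0.443. On chromosomes the same measure was 0.171 to 0.219 over P300 pairs, 0.170 to 0.332 over YY1 pairs and 0.0262 to 0.0564 between antibodies. Seen from the regions of both P300 WT libraries, 62 of 66 (93.9%, 85.4 to 97.6) were in at least 1 del-cIDR library, against 72.9% in the whole series. From the regions of both P300 del-cIDR libraries, 59 of 60 were in at least 1 WT library, against 88.3%. For YY1 the counts were 21 of 24 from WT, against 97.3%, and 25 of 28 from del-cIDR, against 66.4%.

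Genotype differences in centred summit reads are given for the same 9 sites, which lie on 4 scaffolds and are not independent. At all 4 sites of MU069435.1 both YY1 del-cIDR libraries lay above both WT libraries, by 0.49 to 0.87 on the log2 scale. At the 3 sites of JH584304.1 and the site of GL456392.1 both del-cIDR libraries lay below both WT libraries, with differences of −0.63 to −0.37. In the whole series 29.5% of the 61 sites lay wholly higher and 29.5% wholly lower in YY1 del-cIDR. For P300 the differences at the 4 sites of MU069435.1 were −0.14 to 0.27, with overlap at 3 of them. At 1 site of the 9 (site 3 of MU069435.1) both P300 del-cIDR libraries lay above both WT libraries, against 16.4% of sites in the whole series. P300 del-cIDR libraries lay below WT libraries at the 3 sites of JH584304.1, with differences of −0.39 to −0.26, against 36.1% of sites in the whole series. The P300 counts of 1 and 3 of 9 are near their background, and the YY1 counts are 4 of 9 in each direction. At the sites of JH584304.1 and GL456392.1 the deposited YY1 folds did not all follow the centred reads. From 73035 to 73267 on JH584304.1 they were higher in del-cIDR (24.5 and 27.0) than in WT libraries (21.6 and 23.9). From 113166 to 113414 they were lower in del-cIDR. The genotypes overlapped in fold on JH584304.1 from 68918 to 69226 and on GL456392.1 from 21965 to 22384. With 2 libraries per genotype no such difference can pass an exact test.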

How the data were processed

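The data are 8 peak lists, 1 per library, so peaks were not called on pooled replicates. Per the submitters' processing notes the build was GRCm39 and the tools included MACS2, BWA, fastp, Picard, SAMtools and featureCounts, without versions or roles. The sources used here name no control library. Each deposited peak has a score, a fold (ratio of summit reads to local background), −log10 p and −log10 q values, and a summit position, all the authors' values. The lowest deposited −log10 q was 1.30 to 1.31 per list. Fold and −log10 q rank peaks only within a list. Where folds of several libraries stand side by side they are each list's own values, and their differences were not tested.

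Groups came from sample titles. Overlapping peaks (1 bp or more) were joined with Python 3.11.15, and a region counted for a library with a peak inside it. Summit reads and background were solved from fold, taken as reads plus 1 over background plus 1, and p, taken as a Poisson tail, and matched the deposited p within a relative tolerance of 1e-04. The solution was tested on simulated data. Library-level values were compared by two-sided exact permutation tests with Benjamini-Hochberg adjustment over 5 tests, with a threshold of 0.05. Counts of regions carry no test and stand beside the whole series. Regions named were the 10 best-ranked of all 8 libraries, all regions of 1 genotype, the widest region and scaffolds seen in every library. The 3 regions of P300 without YY1, the region on GL456233.2 and that on JH584304.1 from 26806 to 27250 fall outside this rule. They were picked after their values were seen. Members, lists and tests were chosen with earlier results of these data known. Sequences, motifs and genes were not analysed here, because no genome of this build was used. Alternatives were a −log10 q of at least 5, equal list lengths (3565 for YY1, 1429 for P300), merging by summits, leaving out libraries and blocking by replicate number. The replicate numbers were not treated as pairing libraries.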

Additional observations from a re-analysis of the deposited data

How the results depend on the processing

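The share of peaks on scaffolds stayed lower for YY1 under every alternative run, with log2 differences of −3.39 to −2.77 without single libraries and −1.90 at equal list length. With a replicate block (exchange only within genotype and replicate number) the value was −3.16 with an exact permutation p of 0.125, the smallest that block allows. No genotype comparison of peak number had a stable sign. The YY1 log2 ratio took the value −0.047 with −log10 q from 5 upwards, −0.46 at equal list length and −0.33 to 0.42 without single libraries. For P300 it was 0.027 at equal list length and −0.25 to 0.070 without single libraries, and the difference between antibodies was −0.49 at equal list length and −0.24 to 0.51 without single libraries. With a replicate block these comparisons have only 4 assignments each, or 16 for the difference between antibodies, and could not pass 0.05, so the block shows nothing about them. Deviations of equal replicate numbers correlated at −0.0156 (YY1) and 0.00281 (P300) over all regions and −0.11 for P300 on scaffolds. A block with the numbers crossed, run for the P300 ratio only, has 4 assignments too, so its 0 calls were fixed by the design. The percentile difference between antibodies took the value 9.59 with −log10 q from 5 upwards, 4.22 at equal list length and −13.2 to −6.57 without single libraries, the first without YY1 del-cIDR replicate 2 (exact permutation p = 0.029). Joining by summits gave 9 regions of all 8 libraries and 11 of all 4 YY1 libraries. Without single libraries these counts were 17 to 20 and 17 to 23, and regions of P300 without YY1 numbered 21 to 24. Regions of 1 genotype numbered 3 to 9 (YY1 del-cIDR, 1 at equal list length), 3 to 16 (YY1 WT), 1 to 10 (P300 del-cIDR) and 4 to 18 (P300 WT), a class that then needs fewer libraries. Missing regions were not called at the authors' threshold, which does not show that they were unbound.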

Other observations

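In several wide regions of all 8 libraries the summit of the strongest peak differed between libraries, and examples follow. On JH584304.1 from 97881 to 98440 the YY1 summit lay at 97917 in del-cIDR replicate 1 and at 98140 in del-cIDR replicate 2. There it lay at 98139 and 98135 in WT replicates 1 and 2, so the YY1 del-cIDR libraries differed from each other. On MU069435.1 from 12654 to 14398 the YY1 summit lay at 13100 in both del-cIDR libraries and at 13313 and 13306 in WT replicates 1 and 2, and the summit of the strongest P300 peak lay at 13311 to 13342. On JH584304.1 from 58819 to 60774 the summit of the strongest YY1 peak lay at 59891 to 59910 in all 4 libraries. There the strongest P300 summits lay at 59649 and 59651 in del-cIDR replicates 1 and 2, at 59918 in WT replicate 1 and at 59664 in WT replicate 2, so the P300 WT libraries differed from each other. These regions were chosen after their values were seen, and the summit positions were not tested.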
